A study of Mus musculus with 50 samples.

Results

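Solute carriers are membrane proteins that move sugars, amino acids, nucleosides, metals, inorganic ions and metabolites across the plasma membrane and the membranes of organelles, and mouse gene symbols that begin with Slc and a number name them by family. In the table of single hemogenic endothelial cells examined here, 199 of 11879 gene rows (1.68%) had such a symbol, and all 199 were kept. Of these, 194 encode transporters or their subunits and 5 do not (the scaffold proteins Slc9a3r1 and Slc9a3r2, Slc7a6os, Slc4a1ap, and the pseudogene Slc2a4rg-ps). The rows held 37 members of the Slc25 family of mitochondrial carriers, 30 amino acid, 26 ion, 24 metal, 19 nucleotide sugar and 10 glucose and sugar phosphate transporters, with the remainder in smaller families.

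The 50 cells were induced hemogenic endothelial cells (iHECs) made in culture from 1 mouse embryonic stem cell line of C57BL/6 background, in which a doxycycline-inducible Runx1 cassette had been placed at the Rosa26 locus (iRunx1). Every cell carried the cassette, was exposed to doxycycline, and came from a sort gate of CD201high, CD31+, CD41low, c-kit+ and CD45-. Runx1 itself was above TPM 1 in 43 of the 50, from 0.16 to 913 TPM with a median of 132, and its row does not tell the cassette from the endogenous gene. The labels name no separate cultures, so the cells formed 1 group with no replicate. No test was made, and the intervals below cover counting over cells only. Values are TPM (a transcript abundance scaled by length to a common total), which keep no sequencing depth, and expression in a cell means a level above TPM 1.

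Glucose enters cells through facilitative carriers of the Slc2 family, and lactate leaves through carriers of the Slc16 family. Amino acid exchangers of the Slc7 family reach the cell surface bound to the heavy chain Slc3a2. Inside the cell, Slc25 carriers exchange ADP, ATP, phosphate and organic acids between cytosol and mitochondrial matrix. Endothelial cells are known for a high use of glucose and for the glucose carrier Slc2a1.

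Of 10 hemogenic endothelium markers, 8 were in at least 90% of cells, and the exceptions were Runx1, in 43 cells, and Itga2b, in 40. Pecam1 (CD31), Kit (c-kit), Procr (CD201) and Itga2b (CD41) encode markers of the sort gate, so their rows are not independent of the sort. The 10 genes summed to between 881 and 4439 TPM per cell (the lowest without cell 4-6, described below, was 1062). Of 10 leukocyte markers, Laptm5 and Lcp1 were in at least 90% of cells. Tyrobp was in 27 cells, Coro1a in 21 and Lyz2 in 15, with highest levels of 1917, 1690 and 988 TPM. Cd52, Mpo and Csf1r were in under 20% of cells. Ptprc (CD45, absent by the sort gate) and Cd48 were in 0 of 50 (an upper limit of 6%), and the list summed to between 18.5 and 3673 TPM. All 6 erythroid and all 5 mesenchymal markers with a row were in under 20% of cells, and the 7 pluripotency markers had no row and were not analysed here. Rows above TPM 1 ranged from 2400 to 8615 per cell. The cell with 2400, whose title ends in 4-6, stood apart from the next lowest at 4326, and lowest or highest levels that came from it are given with and without it.

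Promoter sequences are shown for 4 genes that head their families: the glucose carrier Slc2a1, the lactate exporter Slc16a3, and the ADP/ATP carriers Slc25a4 and Slc25a5. They run from 250 bases before to 50 after the RefSeq gene start on GRCm38.p6, at chr4:119108495-119108794 on the plus strand (Slc2a1), chr11:120948817-120949116 on the plus strand (Slc16a3), chr8:46211013-46211312 on the minus strand (Slc25a4) and chrX:36795347-36795646 on the plus strand (Slc25a5). Capitals mark ACGTG, a form of the core of the hypoxia response element (A or G, then CGTG), searched on both strands. The form GCGTG was not searched or marked, so a window without ACGTG may still hold that form. RefSeq starts can lie apart from the ends of the GENCODE gene models given with the levels.
Slc2a1: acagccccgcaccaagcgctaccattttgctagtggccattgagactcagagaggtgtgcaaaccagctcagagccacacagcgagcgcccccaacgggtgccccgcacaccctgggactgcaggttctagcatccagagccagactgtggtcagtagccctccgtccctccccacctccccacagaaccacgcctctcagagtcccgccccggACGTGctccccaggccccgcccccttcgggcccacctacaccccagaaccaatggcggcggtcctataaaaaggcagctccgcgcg
Slc16a3: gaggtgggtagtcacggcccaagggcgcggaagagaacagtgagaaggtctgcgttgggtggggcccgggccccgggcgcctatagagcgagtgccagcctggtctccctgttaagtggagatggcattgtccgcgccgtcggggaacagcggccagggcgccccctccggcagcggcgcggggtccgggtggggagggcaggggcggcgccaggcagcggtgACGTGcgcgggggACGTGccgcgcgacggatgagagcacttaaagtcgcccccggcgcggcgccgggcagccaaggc
Slc25a4: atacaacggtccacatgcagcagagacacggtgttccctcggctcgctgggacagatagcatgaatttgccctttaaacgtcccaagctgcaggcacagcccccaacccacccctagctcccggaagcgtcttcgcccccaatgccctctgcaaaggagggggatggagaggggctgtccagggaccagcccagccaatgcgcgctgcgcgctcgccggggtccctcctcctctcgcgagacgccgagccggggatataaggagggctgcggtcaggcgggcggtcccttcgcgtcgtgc
Slc25a5: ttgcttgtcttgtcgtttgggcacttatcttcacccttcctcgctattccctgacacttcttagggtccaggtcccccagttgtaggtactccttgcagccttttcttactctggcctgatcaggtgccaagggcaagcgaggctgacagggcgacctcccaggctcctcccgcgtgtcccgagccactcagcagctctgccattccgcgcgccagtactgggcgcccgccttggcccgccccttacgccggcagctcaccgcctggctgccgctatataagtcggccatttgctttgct

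ACGTG was found 1 time in the Slc2a1 window, beginning 36 bases before the start, 2 times in that of Slc16a3, beginning 27 and 14 bases before it, and not in the windows of Slc25a4 and Slc25a5. Of 32851 RefSeq mouse promoters of this length, 19.6% held it. The members in at least 90% of cells had an entry for 21 of 23 genes, with 31 promoters, of which 12 (38.7%) held it. No share is given for promoters of all rows in at least 90% of cells, and the motif itself holds a CG pair. The difference between these shares is therefore not a result about solute carriers. All 4 windows were rich in CG pairs, with 18 in Slc2a1, 36 in Slc16a3, 25 in Slc25a4 and 18 in Slc25a5, against a median of 7 over all promoters and of 20 (range 1 to 47) over the 31. Over all 199 rows the comparison is void, since 152 (76.4%) had an entry. A match of letters is a description, and no binding was measured in these cells.

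How many of the solute carriers did an iHEC express? A cell had a median of 79 members above TPM 1 (95% interval of the median 73 to 90), from 26 in cell 4-6 and 46 in the next lowest to 132 in cell 3-8. This number followed the number of all rows above TPM 1 in the cell (Spearman rho 0.924 over 50 cells, as a description). Their summed level did not follow it in this way: the members summed to a median of 9642 TPM per cell (8954 to 10109), from 5313 to 13119, with a rho of 0.142. Solute carriers were thus a median of 1.00% of the TPM of a cell. The 5 members with the highest median TPM over all cells held a median of 40.7% of the members' TPM in a cell. For the 10 with the highest medians the share was 55.7%. These sets were the same in every cell. Cell titles begin with a number from 1 to 4, shared by 11, 14, 13 and 12 cells respectively, and the labels do not say what it stands for. Over its 4 values the median number of members ranged from 75 to 83 and the median sum from 8954 to 10109 TPM.

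Across genes, 23 members (11.6%) passed TPM 1 in 90% of cells or more, a class that held 19% of all rows. Another 6 (3.02%, against 8.01% of all rows) were between 80% and 90%, 115 (57.8%, against 49.6% of all rows) were in 20% to 80% of cells, 38 (19.1%, against 18.2% of all rows) were in fewer than 20%, and 17 (8.54%, against 5.14% of all rows) were above TPM 1 in no cell. The median member was above TPM 1 in 36% of cells, and the median row of the table in 52%. At the edge of the highest class, Slc38a1, Slc39a10 and Slc9a3r2 were in 46 cells (exact 95% interval 80.8% to 97.8%), none was in 45, and Slc38a4 and Slc6a6 were in 44 (75.7% to 95.5%). The interval spanned 90% for all 21 members in 42 to 49 cells, and lay above it only for the 8 members in all 50. At the other limits Slc25a46, Slc35a4 and Slc7a6os were in 40 cells, 6 members were in 10, and Slc36a4, Slc30a1, Slc29a2 and Slc22a15 were in 9. The longest coding transcript had a median of 2364 bases in the highest class, 3362 in the 20% to 80% class and 3544 in members in under 20% of cells, and its part in these shares was not tested.

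**Figure D1:**
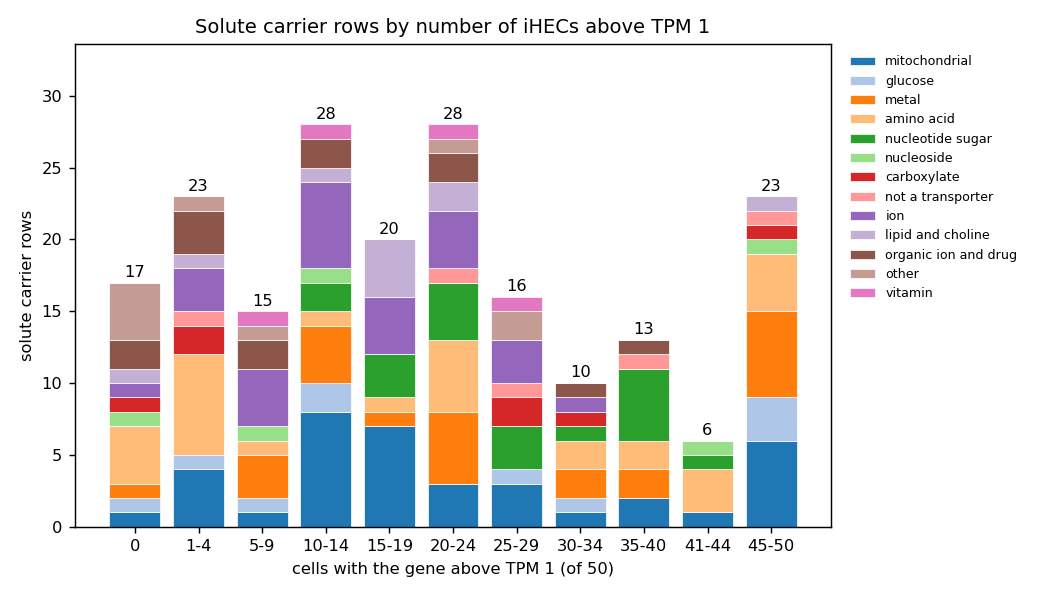
Number of solute carrier rows (vertical axis) by the number of 50 iHECs in which each was above TPM 1 (horizontal axis), coloured by family; the number over each bar is its total. The 23 rows at the right are those in at least 90% of cells, the 17 at the left were above TPM 1 in no cell, and nucleotide sugar transporters (dark green) fill the middle without reaching the right-hand bar.

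By family, the 23 members of the highest class were 6 of 37 mitochondrial carriers, 6 of 24 metal transporters, 4 of 30 amino acid transporters, 3 of 10 glucose and sugar transporters, 1 of 5 nucleoside, 1 of 7 carboxylate and 1 of 10 lipid and choline transporters, and the scaffold Slc9a3r2. None of 26 ion, 19 nucleotide sugar, 13 organic ion and drug, 4 vitamin or 9 other transporters was among them. Of all 1150 values in this class, 92.5% were over 10 TPM, 63.7% were over 100 TPM and 1.13% were listed at 0, against 92%, 61.2% and 1.78% of the values of all rows in this class.

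**Figure D2:**
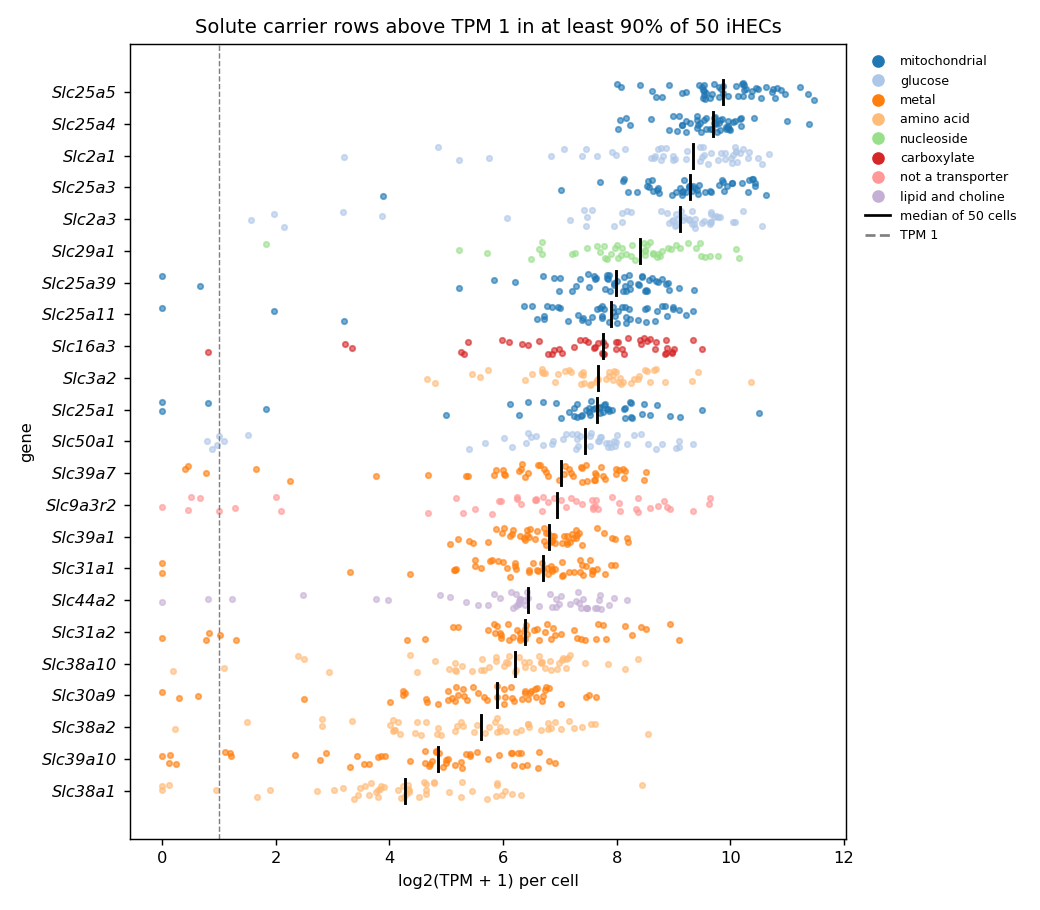
Level of the 23 solute carrier rows above TPM 1 in at least 90% of 50 iHECs, in log2(TPM + 1) on the horizontal axis, with 1 point per cell, a black line at the median and genes ordered by it; colours give the family and the dashed line marks TPM 1. Slc25a4, Slc25a5 and Slc39a1 form tight groups of points, while Slc2a3, Slc50a1 and Slc9a3r2 have a separate tail of low cells.

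Mitochondrial carriers were the highest family in 50 of 50 cells. Their sum had a median of 3776 TPM (3412 to 3938) and ranged from 2328 to 5865, and they made up a median of 42.3% of the TPM of the members, from 28.5% to 62.5%, with medians between 34.1% and 46% over the 4 first title numbers. The sum was also the steadiest, with an SD of its log2 of 0.33 over the cells.

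The ADP/ATP carriers, which bring ATP out of the matrix in exchange for ADP, led this family. Slc25a5 (chrX:36795651-36798807) was between 256 and 2832 TPM with a median of 931 (758 to 1210), and was the highest member of all in 24 cells. Slc25a4 (chr8:46206797-46211284) was between 260 and 2666 TPM with a median of 827 (685 to 897), and was the highest member in 10 cells. No cell was low for either gene. The 2832 TPM of Slc25a5 came from cell 4-6, and its highest value without that cell was 2645. The intervals of the medians overlapped. Slc25a5 was above Slc25a4 in 34 cells and below it in 16, and the pair differed by more than 2-fold in 15. Their levels were little related (rho 0.167 over 50 cells), and together they ranged from 530 to 3577 TPM. These genes are close paralogs, and how reads that fit both, or a related pseudogene, were assigned was not examined here, so the division between them is uncertain.

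The phosphate carrier Slc25a3 was in every cell, from 13.7 TPM in cell 4-6 (129 in the next lowest) to 1576, with a median of 622 (555 to 755). Slc25a39, which imports glutathione, had a median of 252 TPM (222 to 301) and a range of 0 to 660. The 2-oxoglutarate carrier Slc25a11 had a median of 237 TPM (188 to 287) and a range of 0 to 647, and the citrate carrier Slc25a1 had 200 TPM (166 to 229) and a range of 0 to 1458. The intervals of these 3 medians overlapped. For Slc25a39 and Slc25a11 the only 0 was in cell 4-6, and the lowest levels without it were 0.58 and 2.9 TPM, while Slc25a1 was at 0 in other cells.

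Outside these 6 the family was patchy. Slc25a17, which by symbol belongs here but resides in peroxisomes, was in 43 cells with a median of 103 TPM, and 24 of the 37 members were in 20% to 80% of cells. Slc25a46, a protein of the outer membrane, was in 40 cells, the calcium-regulated ATP-Mg/phosphate carrier Slc25a24 in 35 and the carnitine carrier Slc25a20, which admits fatty acids for oxidation, in 34, with medians of 29, 14.2 and 44.3 TPM. The aspartate/glutamate carriers Slc25a13 and Slc25a12 of the malate-aspartate shuttle were in 25 and 16 cells. Of the mitoferrins, which carry iron inward, Slc25a37 was in 21 cells and Slc25a28 in 18. Slc25a37 alone was above TPM 1 in 16 cells, Slc25a28 alone in 13 and both in 5.

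Glucose and sugar transporters were the second highest family in 35 cells. Their sum had a median of 1562 TPM (1217 to 1908), or 15.8% of the members' TPM, but it ranged from 39.6 to 2868, with an SD of its log2 of 1.12. The leading genes were Slc2a1 and Slc2a3, the glucose carriers GLUT1 and GLUT3, and over the 4 first title numbers the median sum lay between 1468 and 1819 TPM.

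Slc2a1 (chr4:119108711-119137983) was above TPM 1 in 50 cells, with a lowest level of 8.24 TPM, a median of 653 (439 to 879) and a highest of 1641. Slc2a3 (chr6:122727809-122801640) was likewise in 50 cells, at 1.95 TPM in the lowest, 551 (470 to 660) in the median and 1506 in the highest. Most cells had much of both, since 46 were over 100 TPM for Slc2a1 and 44 for Slc2a3. Of 6 cells under 100 TPM for either gene, 4 were under it for both. In these 4 the levels of Slc2a1 and Slc2a3 were 27.8 and 1.95 TPM in cell 4-13, 8.24 and 8.08 in cell 2-12, 53.2 and 13.5 in cell 4-6, and 36.6 and 66.1 in cell 3-14. They had between 2400 and 6446 rows above TPM 1, against a median of 6224 over all cells, and the part of this number was not tested. In cells 1-8 and 2-2 Slc2a3 alone was low, at 2.93 and 3.43 TPM beside 114 and 1641 of Slc2a1, the latter being its highest value. No cell had Slc2a1 alone under 100 TPM. Slc2a1 was the higher in 31 cells and Slc2a3 in 19, and their TPM differed by more than 10-fold in 3, cells 4-13, 1-8 and 2-2. Over the 50 cells they had a rho of 0.549, and of 0.526 without cell 4-6. Within the 4 first title numbers rho ranged from 0.266 to 0.762. Without cell 4-6 the medians were 703 and 563 TPM, and with all cells their intervals overlapped.

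Other sugar carriers were lower. Slc50a1, a sugar efflux carrier, had a median of 173 TPM (133 to 224) and a highest of 644. It was above TPM 1 in 47 cells and at 0.74 TPM in its lowest cell, so that its low cells lay near the threshold rather than at 0. Slc37a4, which takes glucose-6-phosphate into the endoplasmic reticulum, was in 32 cells with a median of 29.6 TPM, Slc37a3 in 27, and the intracellular glucose carrier Slc2a8 in 14, where its median was 32.5 TPM. Slc2a10 was in 1 cell, at 29.3 TPM, and Slc2a6 was listed at 0 in all cells.

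**Figure D3:**
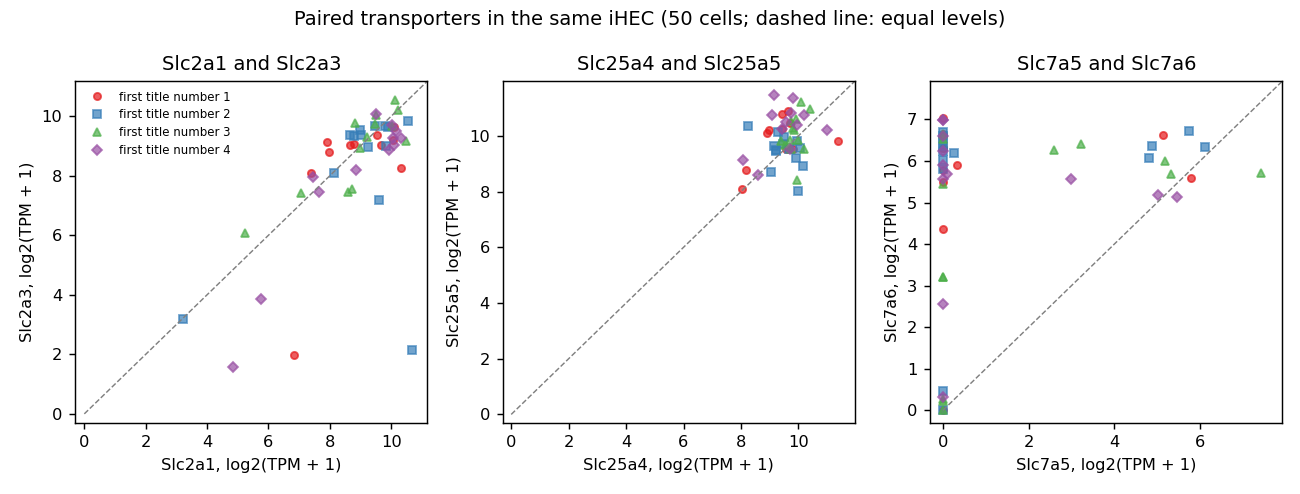
Levels of 3 pairs of transporters in the same cell, in log2(TPM + 1) on both axes, with 1 point per iHEC (50 cells), symbols by the first number in the cell title and a dashed line at equal levels. Slc2a1 and Slc2a3 lie along the line with 6 low cells, Slc25a4 and Slc25a5 form 1 compact cloud, and Slc7a6 lies above Slc7a5 in 44 cells, counting values below TPM 1.

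Lactate and other monocarboxylates leave or enter by carriers of the Slc16 family, of which Slc16a1 and Slc16a3 are known to require the chaperone basigin (Bsg). Slc16a3 (chr11:120948480-120960868), the exporter MCT4, was above TPM 1 in 49 cells, with a lowest level of 0.75 TPM in cell 4-6 (8.34 in the next lowest), a median of 215 (163 to 278) and a highest of 725. Slc16a1, or MCT1, was in 26 cells with a median of 3.27 TPM and a highest of 119, and Slc16a3 exceeded it in 48 cells. Basigin itself was above TPM 1 in 50 cells, from 92.6 TPM in cell 4-6 (239 in the next lowest) to 2688, with a median of 983. Slc16a13 and Slc16a6 were in 30 and 28 cells with medians of 7.79 and 2.51 TPM, while Slc16a7 and Slc16a10 were listed at 0 throughout. Slc16a3 had a rho of 0.446 with Slc2a3 and of 0.308 with Slc2a1 over the 50 cells.

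Amino acid transporters summed to a median of 819 TPM (757 to 1001), from 225 to 1528, or 8.94% of the members' TPM. The heavy chain Slc3a2 (chr19:8706882-8723369) was in all 50 cells, from 24.2 to 1311 TPM with a median of 202 (165 to 251). Its highest value came from cell 4-6, and the highest without that cell was 687. No cell lacked the heavy chain, whereas its light chains varied from cell to cell.

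Of the 6 Slc7 light chains that pair with Slc3a2 and had a row, Slc7a6 was in 43 cells, Slc7a7 in 23, Slc7a5 in 14, Slc7a8 and Slc7a11 in 3 each, and Slc7a10 in none. Slc7a6 (y+LAT2, chr8:106168857-106198706), an exchanger of cationic for neutral amino acids, had a median of 61.0 TPM (46.9 to 78.4) and a highest of 130. Slc7a5 (LAT1, chr8:121881150-121907694), the carrier of large neutral amino acids, was at 0 in most cells, with a median of 34.9 TPM in the 14 cells above TPM 1 and a highest of 171. The cystine/glutamate exchanger Slc7a11 reached 11.9 TPM in its highest cell. A cell had 0 light chains in 3 cases, 1 in 17, 2 in 22, 3 in 7 and 4 in 1. The highest light chain was Slc7a6 in 36 cells, Slc7a7 in 7, Slc7a5 in 3 and Slc7a8 in 1. Slc7a6 or Slc7a7 was present in 46 cells, and Slc3a2 was above the sum of its light chains in 43. Level of the heavy chain and sum of the light chains had a rho of 0.236.

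The Slc38 carriers of small neutral amino acids supplied the other members of the highest class. Slc38a10 had a median of 73.4 TPM (52.8 to 100), Slc38a2 (SNAT2) of 47.7 (28 to 64.9) and Slc38a1 (SNAT1) of 18.4 (13.0 to 23.9), with highest values of 333, 373 and 348 TPM. Slc38a2 was above Slc38a1 in 38 cells. The taurine carrier Slc6a6 and Slc38a4 were just under the limit, in 44 cells each, with medians of 94.6 (45.8 to 124) and 76.8 (56.9 to 107) TPM, whose intervals overlapped that of Slc38a10. The glutamine carrier Slc1a5 was in 35 cells with a median of 23.5 TPM and the related Slc1a4 in 18, with both in 11. The cationic amino acid carrier Slc7a1 was in 33 cells with a median of 6.74 TPM. It was above TPM 1 without Slc7a5 in 20 cells, and together with it in 13 of the 14 cells that had Slc7a5.

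Metal transporters had a median sum of 850 TPM (762 to 920), from 296 to 1914, or 8.24% of the members' TPM. The zinc importer Slc39a1 (chr3:90248172-90253612) was above TPM 1 in 50 cells, from 32.5 to 294 TPM with a median of 112 (87.9 to 134). Slc39a7, which releases zinc from the endoplasmic reticulum, had a median of 129 TPM (82.9 to 167) and ranged from 0.32 to 363. Slc39a1 and Slc39a7 thus had medians whose intervals overlapped, but SDs of log2(TPM + 1) of 0.72 and 2.03. Slc31a1, the copper importer CTR1, had a median of 103 TPM (73.4 to 130) in 48 cells, and Slc31a2 of 83.1 (68.0 to 114) in 47. Slc30a9 and Slc39a10 had medians of 58.4 and 27.8 TPM. Against the number of rows above TPM 1 in the cell, rho was -0.30 for Slc31a1, -0.28 for Slc31a2 and 0.48 for Slc39a7, as descriptions over 50 cells. Of the zinc exporters, Slc30a1 of the plasma membrane was in 9 cells and below Slc39a1 in all 50, and Slc30a5 and Slc30a7 of the secretory pathway were in 37 and 36.

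Iron and heme carriers were patchy. The importer Slc11a2 was in 24 cells and the exporter Slc40a1 (ferroportin) in 5, with both above TPM 1 in 1 cell. The transferrin receptor Tfrc was in 16 cells and reached 85.1 TPM. Slc48a1, which moves heme out of endosomes, was in 31 cells and reached 399.8 TPM.

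Ion transporters had no member in at least 90% of cells. Of 26, 18 were in 20% to 80%, and their sum had a median of 188 TPM (147 to 215), which was less than that of the 19 nucleotide sugar transporters. The sodium-phosphate carriers Slc20a1 and Slc20a2 led, in 33 and 28 cells with medians of 13.9 and 4.87 TPM, with both above TPM 1 in 20. Next came the sodium bicarbonate carrier Slc4a7, in 26 cells with a median of 2.67 TPM. The potassium chloride cotransporters Slc12a7 and Slc12a4 were in 23 and 22 cells, and the sodium-potassium-chloride cotransporter Slc12a2 in 20. Slc12a4 alone was above TPM 1 in 12 cells, Slc12a2 alone in 10 and both in 10. Of the beta subunits of the sodium pump, which builds the gradient many of these carriers use, Atp1b3 was in 50 cells with a median of 257 TPM, while Atp1b1 was in none.

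**Figure D4:**
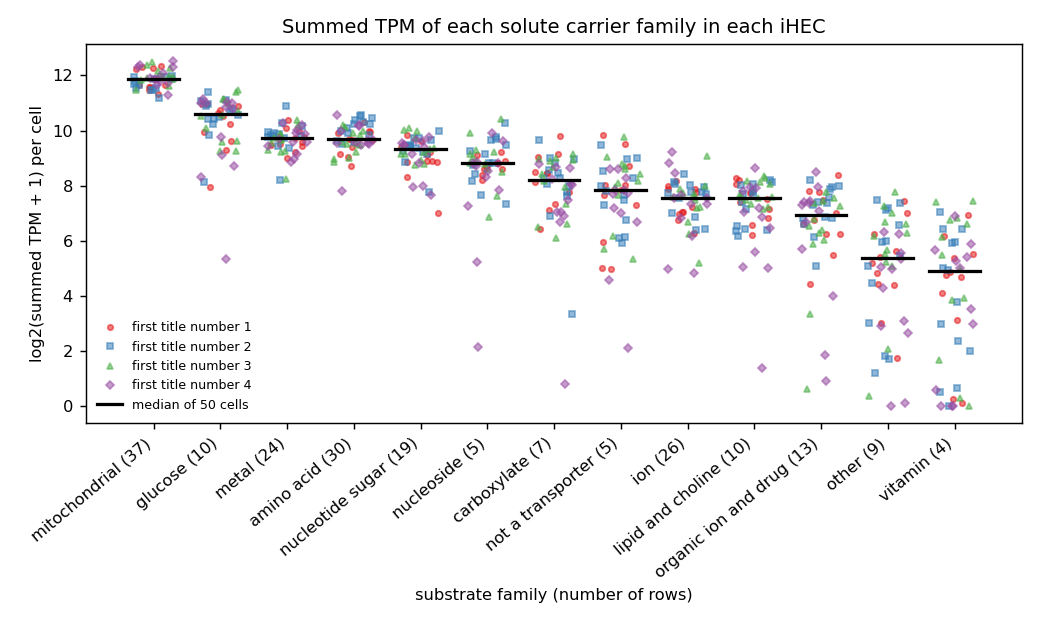
Summed TPM of each solute carrier family in each of 50 iHECs, as log2(summed TPM + 1) on the vertical axis, with families ordered by their median (black line), the number of rows of each in brackets, and symbols by the first number in the cell title. Mitochondrial carriers are highest and most tightly grouped, with a median of 3776 TPM, and the glucose family, at 1562 TPM, has a tail of low cells that reaches 39.6 TPM.

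Nucleotide sugar transporters, which supply the Golgi and endoplasmic reticulum with substrates for glycosylation, had a median sum of 650 TPM (565 to 707), and 18 of 19 were in 20% to 80% of cells. The exception, Slc35b3, a carrier of the sulfate donor PAPS, was in 42 cells with a median of 42.3 TPM. Slc35a4 was in 40 cells with a median of 94.5 TPM, Slc35b1 in 38 with 79.9, and Slc35b2, the other PAPS carrier, in 38 with 77.9. These 4 were absent, by the threshold, from 8 to 12 cells each. The CMP-sialic acid carrier Slc35a1 was in 35 cells with a median of 36.4 TPM, and the UDP-galactose carrier Slc35a2 in 36 with 11.0 TPM.

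Nucleoside transport rested on 1 gene for most of its level. Slc29a1 (ENT1, chr17:45585200-45599606) was in 50 cells, from 2.53 TPM in cell 4-6 (36.4 in the next lowest) to 1139, with a median of 338 (257 to 398). The purine nucleobase carrier Slc43a3 was in 43 cells with a median of 90.7 TPM, and Slc29a2 in 9, below Slc29a1 in all 50.

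Among the smaller families, the choline transporter-like protein Slc44a2 was in 48 cells with a median of 85.3 TPM (75.3 to 129), and no other lipid or choline carrier was in more than 24. In the organic ion and drug family, the vesicular monoamine carrier Slc18a2 (VMAT2, chr19:59260896-59296012) was in 37 cells with a median of 58.1 TPM (26.4 to 74.0) and a highest of 225, and the lysosomal sialic acid carrier Slc17a5 in 33 with a median of 21.4 TPM. Slc18a2 is also known from platelets. Among 5 megakaryocyte markers with a row, Itgb3 was in 46 cells, Pf4 in 17, Gp9 in 3 and Ppbp in 0, and the list summed to between 0 and 531 TPM, but its part in the level of Slc18a2 was not tested. The ascorbate carrier Slc23a2 was in 29 cells, and the thiamine carrier Slc19a2 in 23. Slc19a2 without the folate carrier Slc19a1 was above TPM 1 in 20 cells, Slc19a1 alone in 2 and both in 3. The lysosomal Slc46a3 was in 28 cells and the inositol carrier Slc5a3 in 22. Slc9a3r2, a scaffold that binds ion exchangers, had a median of 123 TPM (78.8 to 191) in 46 cells, and the related Slc9a3r1 was in 20.

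The 115 members in 20% to 80% of cells had many values at 0. Of their 5750 values, 47.6% were listed at 0, 8.49% were above 0 and up to TPM 1, 10.5% were between 1 and 10, and 33.5% were over 10 TPM, with 3.79% over 100. Over all rows in this class the shares were 40.9% at 0, 8.53% above 0 and up to TPM 1, 12.5% between 1 and 10 and 38% over 10 TPM. The median level of a member in the cells above TPM 1 was 25.1 TPM at the middle of the class, from 4.78 to 103, and 55 of the 115 exceeded 100 TPM in at least 1 cell. The rank correlation of the level with the number of rows above TPM 1 in the cell was positive for 108 of the 115, with a median of 0.261, and the part of that number in these shares was not tested. The same count over all rows of the class is not given, so it cannot be read as a trait of solute carriers. Whether a value of 0 is a missed molecule or a silent gene cannot be told apart in these values.

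The 10 most variable of them, by the SD of log2(TPM + 1), included no glucose, amino acid or ion transporter. Slc39a4 (chr15:76612383-76617384), a zinc importer of the plasma membrane, had the largest SD, 3.1. It was in 23 cells, where its median was 73.5 TPM, and it reached 462 TPM. Next came 5 nucleotide sugar transporters or relatives, namely Slc35b1 (SD 2.98), Slc35a1 (2.97), Slc35f5 (2.93), Slc35b2 (2.88) and Slc35c2 (2.86), and the metal carriers Slc48a1 (2.9) and Slc30a6 (2.88). The mitochondrial Slc25a45 (2.85) and Slc18a2 (2.82) completed the 10. Slc35b1, an exchanger of ATP and ADP in the endoplasmic reticulum, was in 38 cells, where its median was 102 TPM, and reached 366 TPM. Slc35c2 reached 504 TPM.

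Was this spread unusual for the level of the genes? Rows not listed at 0 throughout were divided into 10 bins of equal number by mean log2(TPM + 1), and 108 of the 184 members not at 0 throughout (58.7%) had an SD above the median of their bin. The median SD was 1.65 for members in at least 90% of cells, against 1.62 for all rows of that class, and 2.3 against 2.29 for those in 20% to 80%. The members as a whole were thus near the other rows, but single members were not. Outside the members in at least 90% of cells, Slc18a1 had an SD above 97.7% of its bin and Slc5a3 above 3.08%. Among members in at least 90% of cells, Slc50a1 exceeded the median SD of its bin by 1.02 and was above 97.4% of its rows. Slc2a3 exceeded the median of its bin by 0.87 and was above 95.5%, and Slc25a1 by 0.85 and above 94.9%. At the other end, Slc38a1 was 0.85 below the median, with an SD above 4.75% of its bin, Slc25a4 was 0.64 below, with an SD above 12.8%, and Slc39a1 was 0.56 below, with an SD above 17.5%. Rows in the bin of Slc38a1 were in a median of 72% of cells, so its low rank goes with its high share of cells. Its SD of 1.64 was near the 1.62 of all rows in at least 90% of cells.

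**Figure D5:**
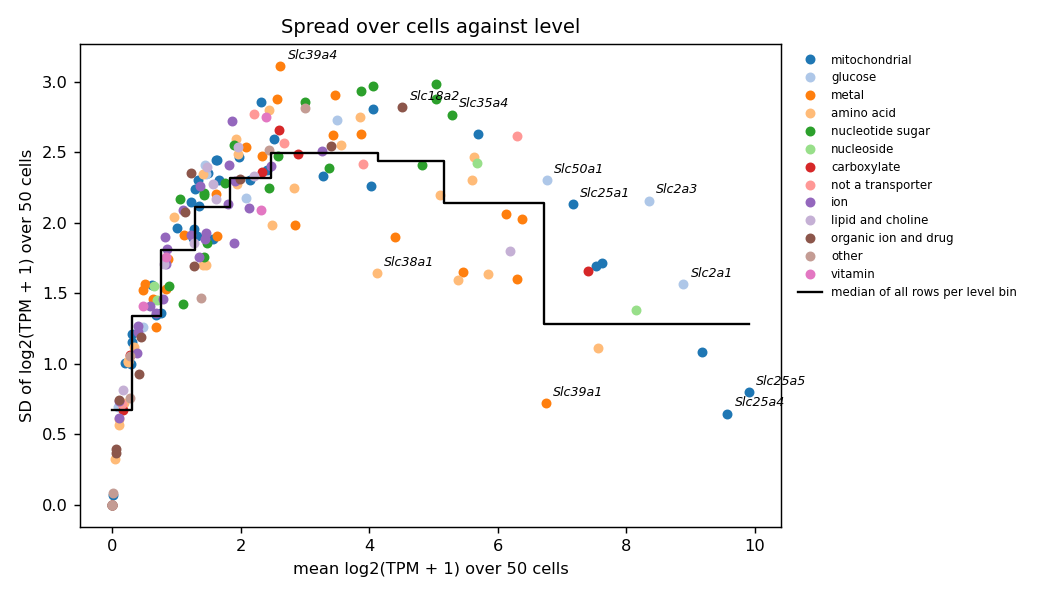
SD of log2(TPM + 1) over 50 iHECs (vertical axis) against its mean (horizontal axis), with 1 point per solute carrier row coloured by family and a black step line at the median SD of the rows of the table in each bin of mean level. Slc50a1, Slc25a1 and Slc2a3 lie above the line by 0.85 to 1.02, and Slc25a4, Slc39a1 and Slc38a1 lie below it by 0.56 to 0.85.

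Levels of pairs of members were mostly unrelated over the cells. Over the 10296 pairs of the 144 members in at least 20% of cells, rho had a median of 0.0626 and ranged from -0.51 to 0.60, and 15 pairs were over 0.5. All points share the total and the number of rows of their cell, so these values describe likeness only. The pair with the highest rho was Slc16a3 and Slc39a7. For Slc2a1 the most like members were Slc2a3 (0.549), Slc7a7 (0.424), Slc9a3r1 (0.386), Slc25a36 (0.377) and Slc16a13 (0.338). The values largest in size for Slc25a5 were mostly negative, with Slc1a4 (-0.470), Slc38a1 (-0.435), Slc29a3 (0.373), Slc22a17 (-0.363) and Slc23a2 (-0.359). Slc7a5 was most like the amino acid carriers Slc7a1 (0.493) and Slc1a5 (0.424), then Slc25a44 (0.405), Slc25a12 (0.392) and Slc35a4 (0.383). Within single first title numbers 2 of these 15 values turned negative, with lowest values of -0.16 for Slc2a1 and Slc9a3r1 and -0.11 for Slc7a5 and Slc1a5.

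Of the members that were not expressed, 15 were listed at 0 in all 50 cells (7.54%, against 4.34% of all rows): Slc2a6, Slc2a13, Slc4a5, Slc6a13, Slc7a10, Slc7a14, Slc11a1, Slc14a1, Slc15a3, Slc16a7, Slc16a10, Slc17a9, Slc22a18, Slc27a6 and Slc28a2. They include the phagosomal metal carrier Slc11a1 of macrophages and the urea carrier Slc14a1. Slc25a35 and Slc45a3 had values above 0 but never above TPM 1. For each of these 17, a count of 0 of 50 cells has an upper limit of 6% (3 of 50), and the upper bound of the exact interval is 7.11%. Solute carriers with no row, among them the insulin-responsive glucose carrier Slc2a4, were not analysed here.

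The other genes of transport had 28 rows of a list of 35, of which 11 were in at least 90% of cells, 11 in 20% to 80% and 3 in under 20%. The 11 included Bsg and Atp1b3, given above, the mitochondrial outer membrane channels Vdac2 (median 407 TPM), Vdac1 (398) and Vdac3 (328), the outer membrane proteins Mtch1 (432) and Mtch2 (196), Tmem165 of the Golgi (152), the volume-regulated channel subunit Lrrc8a (69.9) and the lysosomal Spns1 (61.7). Hexokinases, which trap glucose after its entry, were somewhat below this class, with Hk1 in 44 cells (median 40.7 TPM) and Hk2 in 41 (12.0 TPM).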

How the data were processed

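The 50 single iHECs were sequenced from cDNA amplified with the Discover-sc WTA Kit V2. The authors aligned reads to mm10 with HISAT2 (2.1.0) and estimated TPM per gene and cell with StringTie (1.3.4), and SAMtools (0.1.19) is also in the submitters' processing notes. The deposited TPM columns summed to between 942975 and 970894. Depth is unknown, no molecular identifiers are named, the strand setting is not given in the sources used here, and the series text and the study's methods name different sequencers. Here members were taken by symbol, with no filter. Shares of cells above TPM 1 have exact Clopper-Pearson 95% intervals and medians distribution-free intervals (ranks 18 and 33 of 50), computed with Python 3.11.15, NumPy 2.4.6, pandas 2.3.3 and SciPy 1.17.1, and a count of 0 allows 3 of 50 cells. The log scale is log2(TPM + 1). The scripts were tested on simulated data.

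Coordinates came from GENCODE M21 on GRCm38, where all 199 members were found, 1 of them through a synonym. Named genes were all members in at least 90% of cells, the leading members of each family, set pairs, the 10 most variable in 20% to 80% of cells and the members most like 3 of them. Any other name was chosen after its values were seen, and a few genes that the rule names are not reported here by name. Members, families and lists were chosen with earlier results of these data known, and Slc7a6os, Slc4a1ap and Slc2a4rg-ps were moved out of the transporters after the rows were seen. Alternatives were other TPM levels, other limits on the share of cells, another pseudocount, rescaling without ribosomal protein rows, and leaving out cell 4-6 or the cells of each first title number.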

Additional observations from a re-analysis of the deposited data

How the results depend on the processing

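No paired analysis was possible because all cells belonged to 1 group. Of 147 recomputed counts, sums, shares and SDs, 133 stayed within the limit set for their kind (the interval of a median for sums, shares of TPM and numbers per cell, the exact binomial interval for pairs, 1 SD over members for the spread, and 1.5 times for counts of genes). With a gene counted at TPM above 0, 5 or 10, the median number of members per cell was 94, 71.5 or 66, and the number in at least 90% of cells was 33, 19 or 19. A limit of 95% of cells left 15 members. With a pseudocount of 0.1 the median SD of members in 20% to 80% of cells was 3.65, and 7 of the 10 most variable members were the same. Rescaling without ribosomal protein rows gave higher median sums, which follows from its construction: 4558 TPM for mitochondrial, 1950 for glucose, 1009 for metal, 1005 for amino acid, 759 for nucleotide sugar, 529 for nucleoside, 229.6 for ion and 223 for lipid and choline carriers. With families by the patterns as first written, an alternative added after seeing the data, the genes that are not transporters summed to 175 TPM. Without cell 4-6 there were 23 and 112 members in the highest and middle class, and leaving out each first title number gave 21 to 24 and 104 to 114. The limits are that depth is unknown, that no culture or animal is named, and that a 0 may be a failed estimate.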
